A study of Mus musculus with 12 samples.

Results

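Bach2, Nr4a3, Tox, Runx1t1, Chd7, Zfp462, Zfp292 and Plag1 are 8 protein-coding genes of chromosome 4 whose products bind DNA, remodel chromatin or, for Runx1t1, act as a corepressor. They were taken from a table of 56923 rows, 1 per Ensembl gene identifier, as regulators expressed in neurons, by symbol in the GRCm38 annotation. They were selected on the measured levels, since they lie in stretches of that chromosome where row levels match the positions of exons (from Plag1 at 3900996 to Zfp462 at 55083563), and with their L-fucose comparison already known. Poly-A RNA had been sequenced from wild-type mouse brain sections that had spent 5 hours in artificial cerebrospinal fluid (aCSF), the salt solution in which living slices are held, either plain or with L-fucose, a sugar found at the ends of many glycans. There were 6 libraries in each group, called aCSF 1 to 6 and L-fucose 1 to 6. The sources used here do not give the strain, age, sex, brain region or dose of L-fucose, nor whether each library came from a separate mouse, so the p-values measure the spread between these libraries, which may be technical.

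Transcription factors read short DNA sequences and switch nearby genes on or off, while chromatin remodelers move or open nucleosomes so that such factors can bind. BACH2 is a repressor with a basic leucine zipper that pairs with small MAF proteins, best known from lymphocytes and also made in neurons. NR4A3, also called NOR-1, is an orphan nuclear receptor and the product of an immediate early gene, one of the genes that neurons and other cells transcribe within minutes to hours of a stimulus without first making new protein. TOX has an HMG box, a domain that binds and bends DNA, and RUNX1T1 is a corepressor that recruits histone deacetylases. CHD7 is an ATP-dependent chromatin remodeler whose human gene is mutated in CHARGE syndrome. ZFP462 and ZFP292 are large zinc finger proteins whose human counterparts are mutated in neurodevelopmental disorders, and PLAG1 is a zinc finger factor active mainly in embryonic growth.

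Immediate early genes are switched on through response elements close to their start sites. The sequence before the first annotated base of Nr4a3 is shown because it holds several copies of TGACG, the core of the cyclic AMP response element bound by CREB. It is chr4:48045055-48045152 on the plus strand (RefSeq, GRCm38.p6), 98 bases 5′ to 3′, with each TGACG, on either strand, in capitals:
Nr4a3: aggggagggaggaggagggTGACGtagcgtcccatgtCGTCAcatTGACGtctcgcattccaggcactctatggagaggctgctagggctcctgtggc
The 250 bases before the RefSeq start site of Nr4a3 held 4 copies of TGACG, of which 3 lie in the stretch shown. Of 32851 RefSeq windows of this length, 17.8% held at least 1 copy and 0.137% held 4 or more. RefSeq windows were found for 3 of the 8 genes. Those of Bach2, at an internal start 178.6 kb into the gene, and of Zfp292 held 0 copies. The full element TGACGTCA, which contains TGACG and was found in 1.55% of windows, was in none of the 3 windows. Nor were TGANTCA, the AP-1 type site (6.75% of windows), and AAAGGTCA, the monomer site of NR4A receptors (1.34%). CACGTG, the E-box, occurred 2 times in the window of Zfp292 and 0 times in the other two, against 6.02% of windows with at least 1. These are matches of letters and do not show that a factor was bound.

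Library totals ran from 9191687 to 18563078 reads. Values are normalized reads, the reads of a row divided by a size factor of its library, so they compare libraries but are not corrected for gene length. Rows named for Actb, Eef1a1 and Snap25, abundant in brain, had means of 19.5, 0.197 and 0.616, so the position that each row had counted was checked. When row positions were displaced along the genome, levels matched protein-coding exons best over 1000 bp from their annotated place in 2357 of 2527 windows of 80 rows. Stretches in register, where every window matched within that distance, lie on chromosomes 4, 6, 15 and 18 and hold 1400 rows, among them the 8 genes. The windows holding the 8 genes matched best at 0 bp, or at 500 bp for some windows with Runx1t1, with correlations at 0 bp from 0.640 to 0.864. A displacement under 500 bp was not looked for. aCSF 5 and aCSF 6 stood apart on the first principal component, at 82.5 and 57.5 against 21.7 or less elsewhere, and had the highest mitochondrial shares, 41.9% and 44.8% of reads.

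The genes are long, with exons of 5.99 kb in Nr4a3 to 13.8 kb in Chd7, all above the median of 5.07 kb over the 381 tested protein-coding rows in register. Bach2 (ENSMUSG00000040270) spans 347.3 kb, from 32238804 to 32586108, and Tox 305.2 kb. Nr4a3 (ENSMUSG00000028341) spans 41.3 kb, from 48045153 to 48086447. Bach2 shares 5.40% of its exonic bases with its antisense neighbour Bach2os, and Tox shares 3.42% with the antisense row Gm11802, while the other 6 share 0%. As the strand setting of the counting is not given, reads of such partners cannot be told apart, but these rows were low, with means of 3.39 for Bach2os and 1.93 for Gm11802. Bach2it1, a row wholly inside an intron of Bach2, had 3.22 normalized reads per exonic kb, against 32.8 for Bach2 itself.

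Levels differed between the genes far more than between the groups. Per exonic kb, Nr4a3 was highest at 702 ± 106 normalized reads (SD over 12 libraries), above 85.6% of the tested protein-coding rows in register. Tox followed at 94.0 ± 19.7 and Zfp462 at 72.9 ± 11.6, then Zfp292 at 50.8 ± 6.41, Runx1t1 at 46.6 ± 7.46, Chd7 at 38.1 ± 5.58 and Bach2 at 32.8 ± 8.79. Plag1, at 0.870 ± 0.696, was near the limit of detection. Nr4a3 did not overlap with any other of the genes in any library, nor did Plag1, and the genes between them overlapped with their neighbours in this order. The median of the tested protein-coding rows in register was 136 normalized reads per exonic kb, above every one of the 8 genes except Nr4a3. These levels describe the genes and support nothing further, because rows were chosen where levels match exons.

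**Figure D1:**
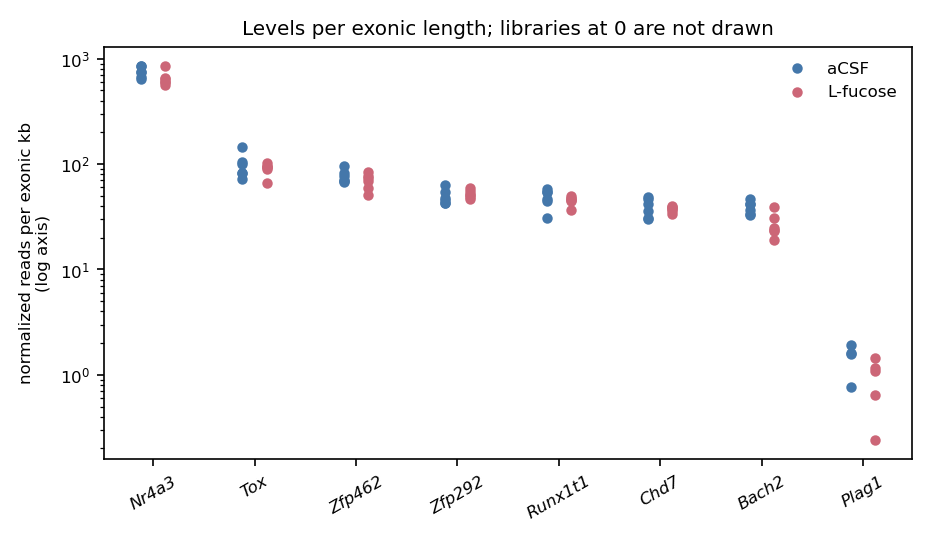
Normalized reads per exonic kilobase (log axis) of the 8 genes, 1 point per library, with aCSF and L-fucose side by side. Nr4a3 lies above 567 in every library, 6 genes lie between 19.0 and 144, and Plag1 lies under 1.90, with 3 libraries at 0 not drawn.

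Setting L-fucose against aCSF addresses whether the sugar changed the levels of these regulators over the 5 hours. With limma, 0 of 10787 tested rows (0%) had an adjusted p under 0.05, and 0 of the 7 tested members did. Bach2 had the lowest p of the members and was lower in L-fucose by 32.4%, Nr4a3 had 13.5% less and Zfp462 10.6% less, while Tox, Runx1t1, Chd7 and Zfp292 differed by 5.95% or less either way. Log2 fold changes were negative for 6 of the 7 and positive for Zfp292, with a median of -0.08, beside -0.05 over the 457 tested rows in register and 0.01 over all tested rows. Negative values made up 61.5% of the tested rows in register and 48% of all tested rows. An interval without 0 was found for Bach2 alone, and for all 7 the 95% confidence interval excluded a change of 1 log2 unit, a doubling or halving, either way. At an unadjusted p under 0.05, a level that 5.96% of all tested rows and 9.85% of those in register reached, there was 1 member, Bach2; in the lower direction alone it was 2.79% of all tested rows.

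Bach2 ranged from 327.9 through a median of 390.8 to 458.8 normalized reads in aCSF, and from 188.5 through 239.2 to 392.2 in L-fucose. The groups overlapped through a single library: L-fucose 5, at 392.2, lay within the aCSF range, and the other 5 L-fucose libraries lay below the lowest aCSF library. At least 5 of 6 L-fucose libraries below all of aCSF was found in 0.751% of tested rows, and Bach2 was singled out in earlier results of these data, so this count describes it and is no independent support. The means were 386 ± 53.6 in aCSF and 266 ± 72.6 in L-fucose (SD, n = 6 each). The difference on the log2 scale was -0.56 (standard error 0.16, interval -0.91 to -0.22), with an adjusted p of 0.819 in limma. Bach2 ranked 33 of 10787 by p over all rows and 5 among those in register. Between 160 and 432 reads per library lie behind these values, so counting error alone gives a coefficient of variation of 5.28% in aCSF and 6.11% in L-fucose, against 13.9% and 27.3% observed.

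Without L-fucose 5 the log2 fold change of Bach2 was -0.68, and without L-fucose 4, the lowest library, -0.47. aCSF 5 and aCSF 6 held 418.4 and 458.8, and without them the log2 fold change was -0.47 with an interval from -0.84 to -0.10 (limma, adjusted p = 0.360). In bulk tissue, fewer cells of a type and less RNA per cell cannot be told apart. Beside Bach2, the 3 markers of motile ciliated cells, Spef2, Cfap206 and Capsl, all had lower means in L-fucose at an unadjusted p under 0.05, with log2 fold changes from -1.30 to -0.76. That level was reached by 9.85% of tested rows in register, and the adjusted p of the 3 in limma ran from 0.775 to 0.827. Their summed level was 259.4 to 410.6 in aCSF and 133.3 to 235.2 in L-fucose, and none of the 3 was at 0. In each of the 3 genes alone the groups overlapped, and how often sums of rows separate was not computed. Of 5 markers of astrocytes and oligodendrocyte precursors, 2 were in register. Both were negative, Ptprz1 at -0.30 (interval -0.49 to -0.11) and Fut9 at -0.23 (-0.49 to 0.04), with adjusted p of 0.827 and 0.848 in limma. Their summed level was 7133 to 10287 in aCSF and 6215 to 7779 in L-fucose. The choroid plexus marker Prlr was at -0.57 (interval -1.18 to 0.03), the sole marker of that list in register. The part of these cells in the Bach2 difference was not tested. The 6 neuronal markers had a median of -0.06 and overlapping summed levels, 41443 to 47201 in aCSF and 41695 to 45803 in L-fucose. Positive values were found for both forebrain interneuron markers, Dlx5 at 0.30 and Dlx6 at 0.24, with a summed level of 230.7 to 564.1 in aCSF and 391.3 to 560.9 in L-fucose. Both striatal markers were positive too, Penk at 0.61 and Tac1 at 0.16, with 4045 to 10700 in aCSF and 7579 to 13897 in L-fucose. Of 3 markers of fibroblasts and vessels, the 2 in register lay on either side of 0, Col1a2 at 0.24 and Npr3 at -0.21. Their summed levels were 505.9 to 910.8 in aCSF and 689.1 to 869.8 in L-fucose. The markers of oligodendrocytes and microglia had 0 rows in register, so no value for them is given.

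**Figure D2:**
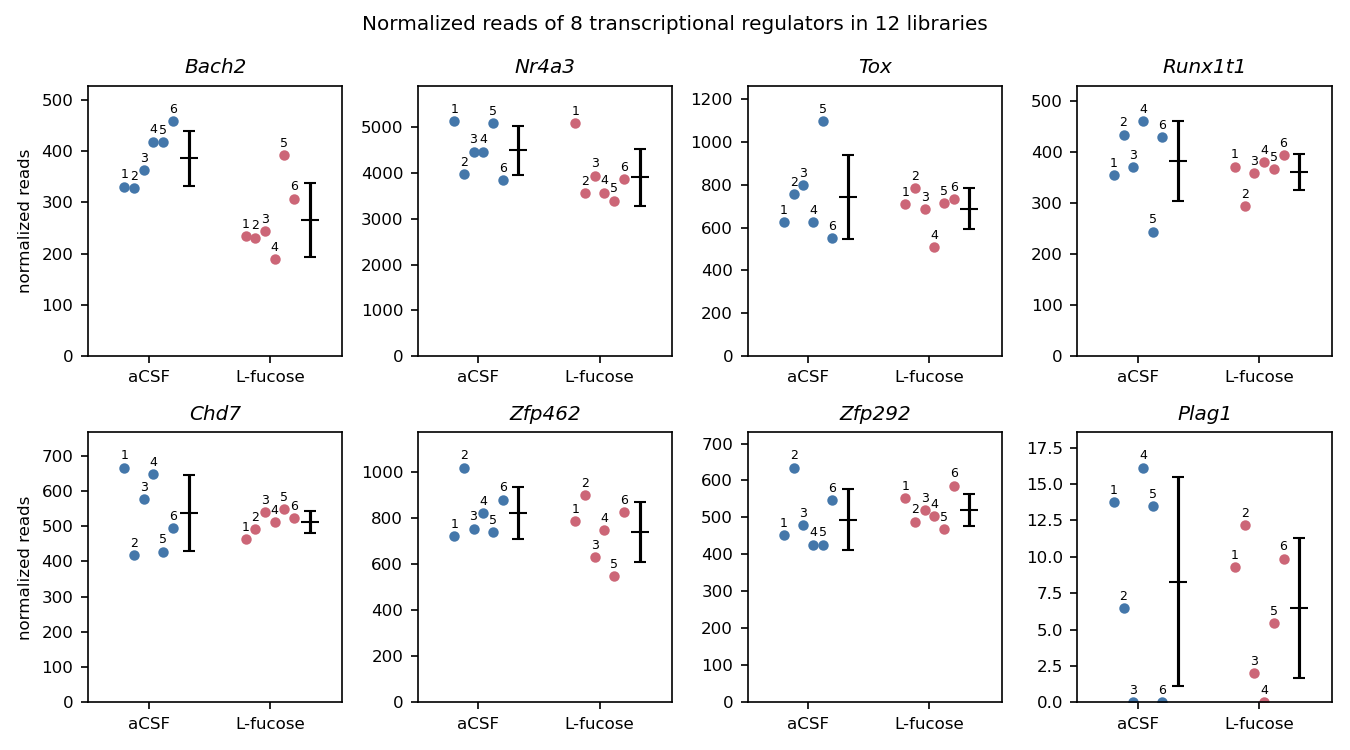
Normalized reads of each gene in each library (points, labelled with the replicate number) with the mean and SD of the group beside them, on axes from 0. In Bach2, 5 of 6 L-fucose libraries lie below the lowest aCSF library at 327.9; in the other genes the groups overlap more widely.

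Nr4a3, the immediate early gene of the set, was abundant in both groups. It ranged from 3846 through a median of 4470 to 5137 normalized reads in aCSF and from 3397 through 3723 to 5087 in L-fucose. The groups overlapped: L-fucose 1 was nearly as high as the highest aCSF library, and the other 5 L-fucose libraries lay between 3397 and 3943. The means were 4500 ± 543 in aCSF and 3906 ± 614 in L-fucose, a difference of -0.21 on the log2 scale (standard error 0.10, interval -0.43 to 0.01). The adjusted p in limma was 0.842, and the difference did not pass the test. Without L-fucose 1 the log2 fold change was -0.29, with an interval from -0.49 to -0.09 and an adjusted p of 0.701 in limma. Leaving out the aCSF 5 and aCSF 6 libraries gave -0.22, with an interval from -0.44 to 0.01. With 3030 to 5858 reads per library, counting error was 1.55% in each group, against observed coefficients of variation of 12.1% in aCSF and 15.7% in L-fucose.

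**Figure D3:**
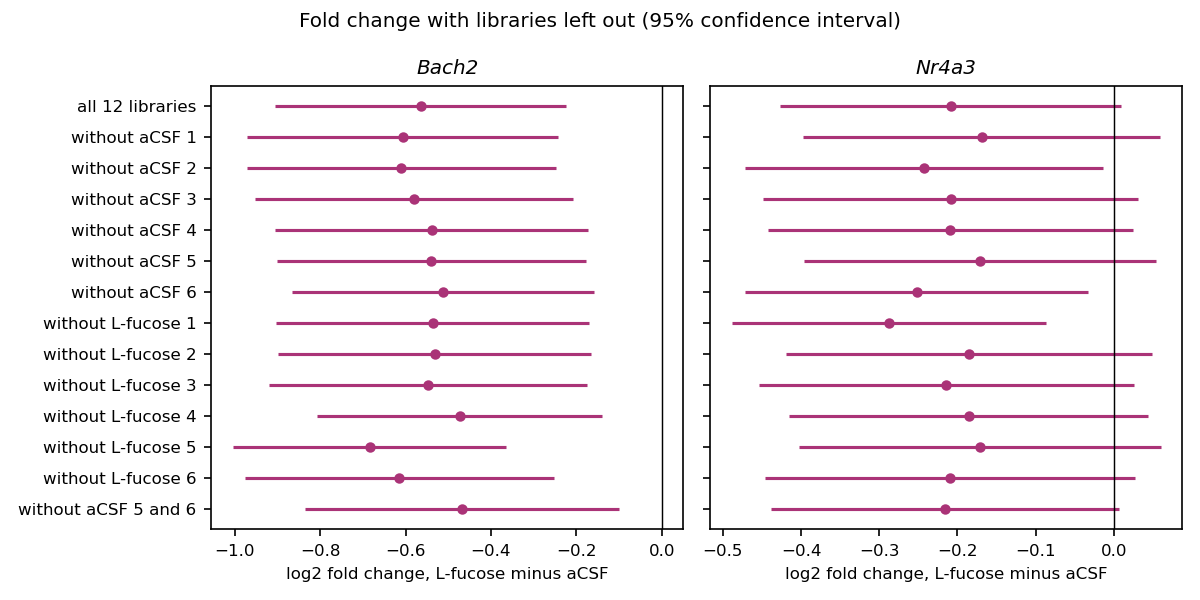
Log2 fold change of Bach2 and Nr4a3 (L-fucose minus aCSF) with its 95% confidence interval in limma, for all 12 libraries and with the named libraries left out. Bach2 stays between -0.68 and -0.47 with every interval below 0, and Nr4a3 between -0.29 and -0.17 with the interval below 0 in 3 of the 13 cases in which libraries were left out.

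Of the other DNA-binding factors and the corepressor, Tox ranged from 549.4 through a median of 690.1 to 1097 normalized reads in aCSF and from 507.9 through 710.8 to 782.7 in L-fucose. Its highest library was aCSF 5, its lowest L-fucose 4, and the remaining values of the groups were intermixed. The log2 fold change of Tox was -0.08 (interval -0.39 to 0.23), and it was 0.04 without aCSF 5 and 0.0034 without L-fucose 4. Runx1t1 ranged from 243.4 through 399.8 to 460.3 in aCSF and from 293.1 through 368.9 to 393.9 in L-fucose. All 6 L-fucose libraries of Runx1t1 were below the aCSF median, which was so in 7.92% of tested rows, yet the lowest library of all was aCSF 5. Its log2 fold change was -0.06 (interval -0.37 to 0.25), -0.18 without aCSF 5 and 0.00088 without aCSF 4.

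Chd7, the chromatin remodeler, ranged from 418.4 through a median of 535.8 to 665.7 normalized reads in aCSF and from 462.9 through 517.2 to 547.5 in L-fucose. The L-fucose libraries all lay inside the aCSF range. The log2 fold change was -0.05 (interval -0.32 to 0.22), and it was 0.02 without aCSF 1 and 0.0094 without aCSF 4. The SD of Chd7 was 107.8 in aCSF and 31.5 in L-fucose, the latter a coefficient of variation of 6.14%, close to the 4.26% that counting error gives.

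Among the zinc finger genes, Zfp462 ranged from 719.6 through a median of 787.9 to 1018 normalized reads in aCSF and from 546.6 through 766.2 to 899.5 in L-fucose. aCSF 2 was the highest library and L-fucose 5 and L-fucose 3 the lowest 2, with wide overlap between them. The log2 fold change was -0.16 (interval -0.43 to 0.10), and it was -0.08 without L-fucose 5 and -0.10 without aCSF 2. Zfp292 ranged from 426.1 through 466.1 to 634.6 in aCSF and from 468.5 through 511.2 to 586.3 in L-fucose. All 6 L-fucose libraries of Zfp292 were above the aCSF median, as in 6.22% of tested rows, but aCSF 3 and aCSF 6 lay within their range and aCSF 2 above it. The log2 fold change was 0.08 (interval -0.17 to 0.34), and it was 0.16 without aCSF 2, 0.04 without aCSF 4 or without aCSF 5, and 0.05 without L-fucose 6. Limma gave adjusted p between 0.888 and 0.970 for Tox, Runx1t1, Chd7, Zfp462 and Zfp292. Plag1 did not reach the minimum of 10 normalized reads in 6 libraries and was not tested. It had 96 reads in all over the 12 libraries, at most 20 in one, and was at 0 in 3, with 8.30 ± 7.19 normalized reads in aCSF and 6.47 ± 4.79 in L-fucose.

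**Figure D4:**
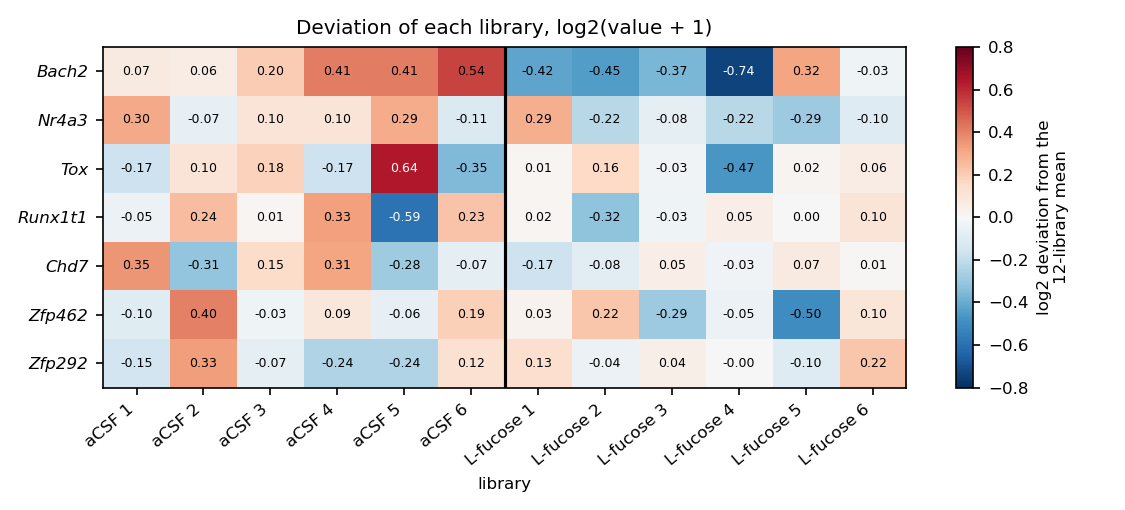
Deviation of each library from the mean of all 12 on the log2(value + 1) scale, for the 7 tested genes, with aCSF left of the line and L-fucose right of it. Bach2 is above its mean in all 6 aCSF libraries and below it in 5 L-fucose libraries, while aCSF 5 is at 0.64 for Tox and -0.59 for Runx1t1.

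The 7 tested genes did not share a pattern over the libraries once the group means were subtracted. Of their 21 pairs, 9 had a positive and 12 a negative Pearson correlation, with a median of -0.15. The range was from -0.73 for Tox and Runx1t1 to 0.62 for Zfp462 and Zfp292. For Tox and Runx1t1, aCSF 5 was the highest library of the former and the lowest of the latter, and their correlation without it was not computed. Bach2 and Nr4a3 were at -0.23. Each value rests on the same 12 libraries and their shared size factors and is a description. Among 378 named rows in register, those most like Bach2 were Ankrd33b at 0.91, Wac at 0.84 and Lrrc4 at 0.82, and those most unlike it Svep1 at -0.83 and Cftr at -0.78. The rows most like Nr4a3 were Ints8 at 0.76, Zbtb5 at 0.66 and Vps13b at 0.63, and the most unlike were Fsbp at -0.70 and Ddx58 at -0.69. These are the extremes of many correlations over 12 libraries. Svep1, Cftr and Fsbp were low rows, with means of 38.1, 15.8 and 28.5 normalized reads, and Fsbp was at 0 in 1 library.

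Of a list of 33 such genes, the 8 included, 32 were in register and 27 were tested, with 17 negative and 10 positive log2 fold changes, a median of -0.08 and 0 past the adjusted threshold in limma. The negative share was close to the 61.5% of all tested rows in register. An unadjusted p under 0.05 was reached by 3 of the 27, beside 9.85% of tested rows in register. Besides Bach2, those with an unadjusted p under 0.05 were Mdfic, an inhibitor of MyoD family factors, at -0.62 (interval -1.15 to -0.09), and Mtdh, a coactivator, at -0.25 (-0.46 to -0.04). Mdfic had 354.8 in aCSF 6 against 103.1 to 191.8 in the other aCSF libraries and 90.07 to 172.1 in L-fucose, while Mtdh had 1964 to 2923 in aCSF and 1788 to 2073 in L-fucose. Every L-fucose value of both genes was under the median of aCSF, as in 7.92% of all tested rows. Apart from the 8 genes, the highest means of the list were those of Zfr, an RNA-binding zinc finger protein, at -0.17, the coactivator Sub1 at -0.08 and Zfp622 at 0.09, each with an interval that included 0. Without the members, the median of the 20 remaining genes was -0.06.

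**Figure D5:**
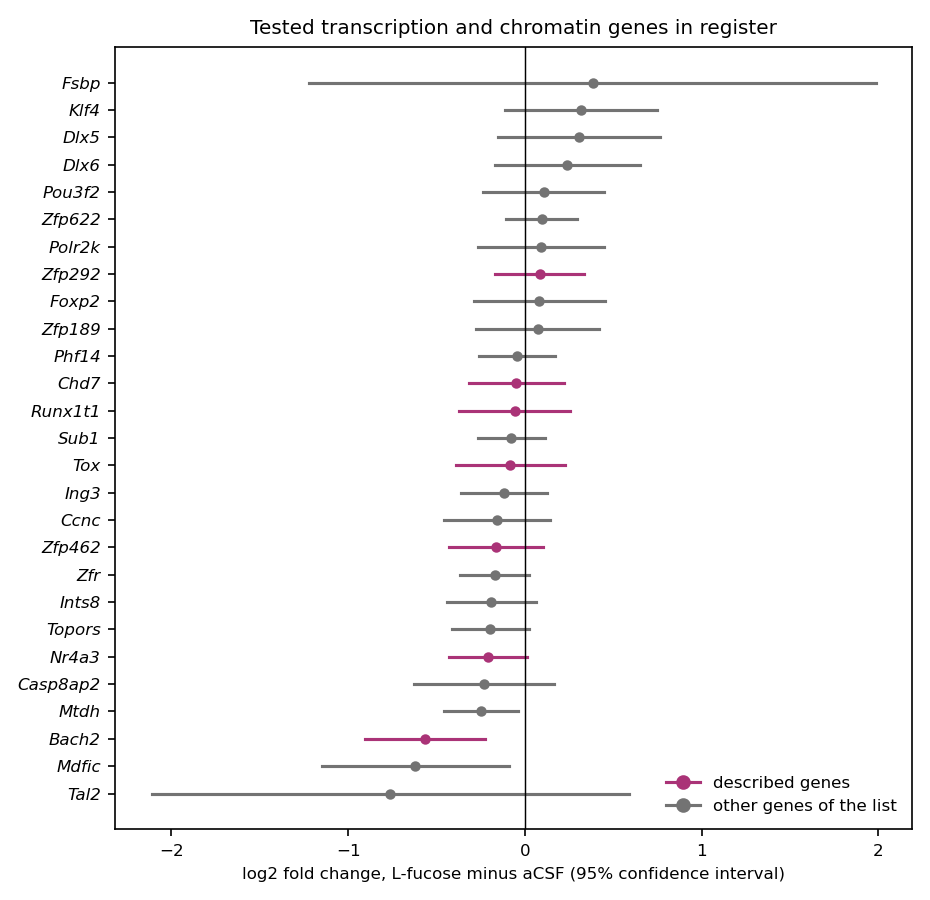
Log2 fold change (L-fucose minus aCSF, limma, point) and 95% confidence interval (line) of the 27 tested transcription and chromatin genes in register, the 7 tested genes described here in purple and the others in grey. The intervals of Bach2, Mdfic and Mtdh lie below 0, and those of all other genes cross it.

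Nr4a3 was set beside other genes that neuronal activity or injury is known to induce. Of 31 listed genes, Nr4a3 included, 5 were in register and tested, and 0 passed the adjusted threshold. With Nr4a3, 3 log2 fold changes were negative and 2 positive, with a median of -0.14. Without Nr4a3, 2 of the 4 genes were negative and 2 positive, with a median of 0.09. Gem, a small GTP-binding protein that inhibits calcium channels, was at -0.27 (interval -0.67 to 0.13) and Crem, a CREB family factor, at -0.14 (-0.43 to 0.14). In both, every L-fucose value was under the median of aCSF, as in 7.92% of all tested rows. Klf4, a Krüppel-like factor whose gene starts at 55.53 Mb, just beyond the stretch from which the 8 genes were taken, was at 0.32 (-0.11 to 0.75). Its mean was 2462 over the 12 libraries, and every L-fucose value was above the median of aCSF, as in 6.22% of all tested rows. Penk, the enkephalin precursor and a marker of the striatum, was at 0.61 (0.20 to 1.03), with an adjusted p of 0.827 in limma. The genes of this list thus lay on both sides of 0, with Nr4a3, Gem and Crem negative and Klf4 and Penk positive.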

How the data were processed

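The authors deposited 1 table whose values are a normalized signal, read counts per gene divided by 1 size factor per library. This follows from the values, of which 100% in each library come out as whole reads, with a tolerance of 0.01. Reads were recovered by that division. Alignment to mm10 with HISAT2 2.2.1 is named in the submitters' processing notes, as are DESeq2 2.11.40.8, Trimmomatic 0.39 and featureCounts 2.0.3. The sources used here do not give the annotation release, strand setting or filters. Identifiers were matched to GENCODE M21 (GRCm38, the same assembly as mm10), with 52073 of 56923 given a symbol. Row positions were checked in windows of 80 rows, in steps of 20, against protein-coding exons displaced by up to 600 kb in steps of 500 bp. Runs of at least 120 rows within 1000 bp were called in register. This scan and limma were checked on simulated data.

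Rows that reached 10 in 6 or more libraries entered limma 3.58.1 (R 4.3.3) on log2(value + 1), fitted with a trend and no covariate besides treatment. P-values are two-sided, adjusted by Benjamini-Hochberg over all 10787 rows. Fold changes on this scale understate those of low rows. Likeness is Pearson's r of log2(value + 1) less the group means. Coefficients of variation computed from reads cover counting error only. The confidence intervals are those of limma and rest on the spread between libraries. Alternatives used edgeR 4.0.16 and DESeq2 1.42.0 on the recovered reads, other filters and pseudocounts, a replicate block and left-out libraries.

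The 8 genes, the lists and the tests were chosen with earlier results of these data known. All 8 are named, with list genes at an unadjusted p under 0.05 and up to 4 of the highest, and the 3 rows most like and 2 most unlike Bach2 and Nr4a3, predicted genes left out.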

Additional observations from a re-analysis of the deposited data

Results flagged for a closer look

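Of 38 groups of 6 values examined, 5 had 1 value set well apart from the remaining ones, and chance would do so in about 5% of groups. In L-fucose 1, Nr4a3 was 5087, and the rest of its group lay at 3397 to 3943. Tox was 507.9 in L-fucose 4 against 687.1 to 782.7. Runx1t1 was 293.1 in L-fucose 2 against 358.2 to 393.9. Mdfic was 354.8 in aCSF 6 against 103.1 to 191.8 in the other aCSF libraries. Klf4 was 4103 in L-fucose 2, the library with the most reads, against 2126 to 2597.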

How the results depend on the processing

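In limma and edgeR, 0 rows passed the adjusted threshold under each alternative. DESeq2 on the recovered reads gave 1, Gabrr2, which is not among the 8 genes (adjusted p 0.00311). None of the 7 tested genes passed under any of the 20 alternatives, with a lowest adjusted p of 0.360, nor did Plag1 in the 2 that tested it, no filter and DESeq2. Bach2 was negative in all 20, from -0.68 to -0.47, with an unadjusted p under 0.05 each time. Nr4a3 (-0.29 to -0.17) and Zfp462 (-0.22 to -0.08) kept their sign in all 20, as did Zfp292 (0.04 to 0.16). With single libraries left out, Tox ran from -0.16 to 0.0387, Runx1t1 from -0.18 to 0.00088 and Chd7 from -0.12 to 0.0178, so their directions depend on single libraries. Without aCSF 5 and 6, Runx1t1 was at -0.16 and Chd7 at -0.15. Rows at an unadjusted p under 0.05 numbered 643, and 1232 with no filter (29235 rows), 1054 in DESeq2, 1177 without aCSF 5 and 6, and 426 without L-fucose 4. The sample titles carry the same numbers, 1 to 6, in both groups and do not say whether equal numbers share a mouse. Deviations of same-numbered libraries correlated at -0.17 to 0.17, over 0.1 in 1 of 6 pairs. Only for number 2 was this correlation above those with all other numbers, at 0.17 against 0.11 at most. Such correlations cannot decide whether a mouse was shared, and the main fit used no pairing. With the replicate block 0 rows and 0 of the genes passed and 585 rows had an unadjusted p under 0.05. Plag1 had too few reads for the test reported.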
